A study of Rattus norvegicus with 18 samples.

Results

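The transcripts of 6 NMDA receptor subunit genes, Grin1, Grin2a, Grin2b, Grin2c, Grin2d and Grin3a, were examined in the hippocampus of rats kept on an ethanol diet and of rats withdrawn from it. The rule took them by gene symbol, with no threshold on a measured value, from the 38445 genes counted in each of 18 libraries, and all 6 were found. The animals were adult male Sprague Dawley rats without genetic modification, and RNA came from the dorsal hippocampus. The 6 control rats received the Lieber-DeCarli control liquid diet for 16 days. The 6 ethanol rats received that diet with 9% (v/v) ethanol for 16 days and were killed at 0 h of withdrawal. The 6 withdrawal rats received the 9% ethanol diet for 15 days and were then switched to control diet for 24 h. All rats were individually housed and pair fed, so all 3 groups shared the liquid diet. Each library came from a different animal.

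NMDA receptors are glutamate-gated channels that pass calcium only when glutamate and a co-agonist, glycine or D-serine, are bound and depolarization has relieved the magnesium block. Every receptor contains the glycine-binding GluN1 subunit, encoded by Grin1, together with glutamate-binding GluN2 subunits (Grin2a to Grin2d) or glycine-binding GluN3 subunits (Grin3a and Grin3b), and the GluN2 partner sets the kinetics and the magnesium sensitivity of the channel. In the hippocampus these receptors are required for synaptic plasticity, and they are inhibited by ethanol. The comparisons therefore address whether subunit transcripts differed after chronic ethanol or during withdrawal.

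The read pairs assigned to genes added up to between 30873228 and 42679748 per rat. All 6 members passed the filter on low values (CPM, the count scaled to library size, above 0.5 in at least 1 rat), which 17853 genes passed. Raw counts lay between 16736 and 23957 per rat for Grin1, between 3981 and 11472 for Grin2a, between 8924 and 25199 for Grin2b, between 2928 and 5350 for Grin2c, between 524 and 1651 for Grin2d, and between 188 and 772 for Grin3a. The coordinates in Rnor_6.0, the assembly used for counting, are given with each gene. Counts were made by strand, and the genes that share exon bases with a member (at most 128 bases) lie on the other strand and held at most 30 counts over all rats.

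The tissue carried the transcripts of hippocampal neurons in every rat, but ethanol rat 1 and withdrawal rat 5 stood apart. The summed level of 3 CA1 markers was 214 CPM in ethanol rat 1 and 219 CPM in withdrawal rat 5, against 333 to 588 CPM in the other 16 rats. The summed level of 6 pyramidal and granule neuron markers was 1204 CPM in ethanol rat 1 and 1061 CPM in withdrawal rat 5, against 1602 to 2891 CPM in the others. Ethanol rat 1 had the highest summed level of 8 thalamic markers, at 1827 CPM. Ethanol rat 4 (1084 CPM) and control rat 6 (1001 CPM) followed, against 312 to 680 CPM in the others. Withdrawal rat 5 had the highest summed level of 7 interneuron markers, at 836 CPM, against 390 to 698 CPM in the others. Withdrawal rats 4 and 5 also stood apart in the summed level of 5 choroid plexus markers, at 27.8 and 29.7 CPM, against 1065 to 5249 CPM in the others, and ethanol rat 1 (5248 CPM) and withdrawal rat 6 (5249 CPM) had the highest levels. In ethanol rat 1 and withdrawal rat 5 the level of some subunits stood apart too, so results are also given without them, and leaving out any single rat gave 0 members with q < 0.1. In bulk tissue, fewer cells of a type and less RNA per cell cannot be told apart.

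Marker genes of other cell types differed between the groups as well. Blood markers summed to 127 to 225 CPM in control, 37.0 to 96.1 CPM in ethanol and 41.5 to 150.5 CPM in withdrawal rats. All 4 were lower in ethanol than in control rats and in withdrawal than in control rats, for example Hbb (log2 fold change −1.59, q = 0.0562, and −1.51, q = 0.0195, limma-voom). Without surrogate variables all 4 remained for ethanol against control, and for withdrawal against control Hbb (q = 0.0695) and Hba-a2 (q = 0.0787) remained while the other two had q = 0.115. For withdrawal against control rats, 1 of 8 astrocyte markers was higher (Gfap, 0.54, q = 0.0775) and 2 were lower (Aldh1l1 the most, −0.41, q = 0.0487), 2 of 5 endothelial markers were higher (Pecam1, 0.34, q = 0.0257, and Flt1, 0.28, q = 0.0629), 2 of 4 markers of oligodendrocyte precursors were higher (Olig2, 0.28, q = 0.0240, and Pdgfra, 0.14, q = 0.0863), and Trps1 of 3 CA3 markers (−0.18, q = 0.0658) and Prox1 of 5 dentate gyrus markers (−0.26, q = 0.0968) were lower. In that fit 5.41% of all genes had q < 0.1. Without surrogate variables none of these astrocyte, endothelial, precursor, CA3 and dentate gyrus calls remained, with q of 0.385 for Gfap, 0.293 for Aldh1l1, 0.205 for Pecam1, 0.265 for Flt1, 0.240 for Olig2, 0.807 for Pdgfra (log2 fold change 0.071), 0.393 for Trps1 and 0.385 for Prox1. The other log2 fold changes were then 0.44 for Gfap, −0.37 for Aldh1l1, 0.31 for Pecam1, 0.29 for Flt1, 0.28 for Olig2, −0.25 for Trps1 and −0.39 for Prox1. For withdrawal against ethanol rats, Gfap (0.74, q = 0.0578), Olig2 (0.31, q = 0.0472) and the interneuron marker Gad2 (0.35, q = 0.0578) were higher. Without surrogate variables Olig2 was at 0.18 (q = 0.278), while Gfap was at 0.73 (q = 0.0773) and Gad2 at 0.62 (q = 0.0821). No gene of the pyramidal and granule neuron, CA1, thalamus, oligodendrocyte, microglia or choroid plexus lists had q < 0.1 in any comparison. Fibcd1, Iyd, Tdo2, Npy, Ly6c1 and Otx2 of the lists were not among the genes tested. The part of these differences in the values of the subunits was not tested. Sequencing index sets followed the groups, since all 6 control rats had the first set, the 6 ethanol rats and 2 withdrawal rats the second, and the other 4 withdrawal rats the third, so that control status and index set cannot be told apart. Within the second set, both withdrawal rats lay inside the range of the 6 ethanol rats for Grin1, Grin2a, Grin2b, Grin2c and Grin2d, and for Grin3a withdrawal rat 1 (15.9 CPM) lay above it and withdrawal rat 2 (7.02 CPM) inside it.

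**Figure D1:**
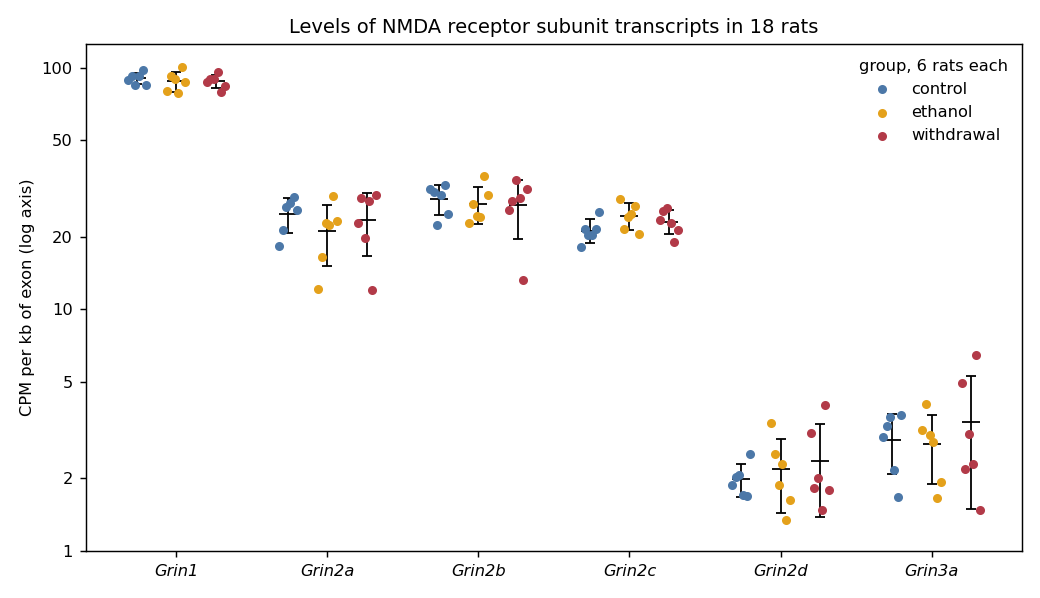
Level of each subunit transcript in each rat, in CPM per kilobase of exon on a log axis. Points are rats, the short line is the group mean and the bar is the SD (n = 6). Grin1 lay between 78.3 and 101 in all rats, Grin2a, Grin2b and Grin2c between 11.96 and 35.6, and Grin2d and Grin3a between 1.35 and 6.45.

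Per length, the levels of the subunits fell into 3 tiers in every group. On the scale of CPM per kilobase of exon, which allows genes of different length to be compared, Grin1 stood at 90.2 ± 5.08 (SD, n = 6) in control, 88.0 ± 8.34 in ethanol and 87.7 ± 5.59 in withdrawal rats. Grin2b, Grin2a and Grin2c formed the middle tier at 28.6 ± 4.05, 24.8 ± 4.07 and 21.2 ± 2.36 in control rats, and Grin3a and Grin2d the lowest at 2.88 ± 0.806 and 1.98 ± 0.304. The mean of Grin1 was 3.16 times that of Grin2b in control rats, and every Grin1 value lay above every Grin2b value in each group. The lowest value of the middle tier lay above the highest of the lowest tier in each group, and the ratio between the neighbouring means was 7.34 in control rats. Within the middle tier the ranges of neighbours overlapped in all 3 groups, and Grin2c stood above Grin2a in the order of means only in ethanol rats, where it was above Grin2a in 4 of 6 rats. Grin3a was above Grin2d in 5 of 6 rats of each group, but their ranges overlapped. On the scale of CPM without length the tiers were different. Grin1 was then only 1.09 times Grin2b in control, 1.11 times in ethanol and 1.12 times in withdrawal rats, with overlapping ranges, Grin2b stood at 2.25 times Grin2a in control rats without overlap, Grin2a stood above Grin2c also in ethanol rats, and Grin2d stood above Grin3a in all 3 groups. The single length used for a gene covers all its annotated exons, so a gene with long exons that the tissue does not use has too low a value on this scale.

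No member passed the test for withdrawal against control rats. In limma-voom with 3 surrogate variables (covariates estimated from the expression data to absorb variation that the groups do not explain), 0 of 6 members had q < 0.1 and 0 of 6 an unadjusted p under 0.05, with q between 0.408 for Grin2c and 0.945 for Grin2a. In the same fit 5.41% of all 17853 genes had q < 0.1 and 19.7% an unadjusted p under 0.05. The edgeR quasi-likelihood test with or without surrogate variables, and DESeq2 and limma-voom without them, gave 0 of 6 members with q < 0.1 and 0 of 6 with an unadjusted p under 0.05, where limma-voom without surrogate variables gave 0.23% and 12.1% of all genes. The ranges of the 2 groups overlapped for all 6 members, where 1.06% of all genes did not overlap.

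No member passed the test for ethanol against control rats either. Again 0 of 6 members had q < 0.1 and 0 of 6 an unadjusted p under 0.05 (limma-voom with 3 surrogate variables), with q between 0.549 for Grin2c and 0.968 for Grin2b, in a comparison where 0.493% of all genes had q < 0.1 and 12.5% an unadjusted p under 0.05. Without surrogate variables, 0.28% of all genes had q < 0.1 and 11.3% an unadjusted p under 0.05 by limma-voom, and 1 of 6 members had an unadjusted p under 0.05 by limma-voom, by edgeR and by DESeq2. This was Grin2c, with q of 0.434, 0.399 and 0.352, respectively. For edgeR and DESeq2 the share of all genes with an unadjusted p under 0.05 was not computed. No member had groups that did not overlap, against 1.32% of all genes.

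For withdrawal against ethanol rats, 0 of 6 members had q < 0.1 and 0 of 6 an unadjusted p under 0.05 (limma-voom with 3 surrogate variables), while 2.72% of all genes had q < 0.1 and 16.7% an unadjusted p under 0.05. The same was true by edgeR with or without surrogate variables, by DESeq2 without them, and by limma-voom without surrogate variables, which gave 3.48% and 18.6% of all genes. In other limma-voom settings 1 of 6 members had an unadjusted p under 0.05. These were 2 (0.0493) and 5 (0.0381) surrogate variables, quality weights (0.0430), upper-quartile scaling (0.0422), no filter (0.0352) and the replicate block with surrogate variables (0.0465). The fit without ethanol rat 1 and withdrawal rat 5 (0.0381) also gave 1, and CPM over 0.5 in at least 6 rats gave 2 (lowest 0.0423). Some fits without 1 rat gave 1 or 2. With 3 surrogate variables, the lowest unadjusted p values were those of Grin1 and Grin2d, with q of 0.302 and 0.327. No member had groups that did not overlap, against 1.22% of all genes. The median log2 fold change of the 6 members was −0.022 for withdrawal against control, −0.0032 for ethanol against control and −0.020 for withdrawal against ethanol rats. The 3 comparisons are not independent of each other, since every pair of them shares the 6 rats of a group.

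**Figure D2:**
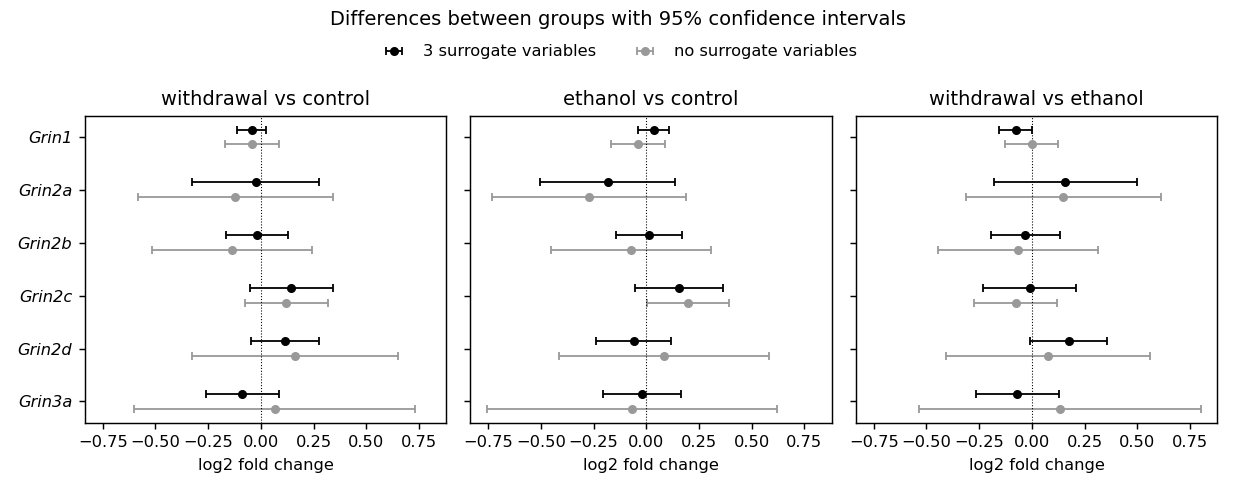
Log2 fold change of each subunit in the 3 comparisons with its 95% confidence interval, from limma-voom with 3 surrogate variables (black) and without any (grey). All black intervals include 0, and among the grey ones only that of Grin2c for ethanol against control rats does not (0.0027 to 0.39).

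Grin1 (gene 24408, chr3:2507745-2534664, minus strand, 6245 exon bases) encodes the obligatory subunit. Its level ranged from 528 to 611 CPM (median 566) in control, from 489 to 630.3 CPM (median 551) in ethanol and from 497 to 597 CPM (median 553) in withdrawal rats. The ranges overlapped, with 2 ethanol rats below and 1 above every control rat and 2 withdrawal rats below every control rat, and the lowest and the highest value both belonged to ethanol rats. The log2 fold change was −0.043 for withdrawal against control (SE 0.0327, 95% confidence interval −0.11 to 0.026), 0.034 for ethanol against control (SE 0.0347, −0.039 to 0.11), and −0.077 for withdrawal against ethanol (SE 0.0368, −0.15 to 0.00051; limma-voom q = 0.302). Without surrogate variables the difference for ethanol against control turned to −0.040, with an interval of −0.17 to 0.087. That for withdrawal against ethanol was then −0.0017, with an interval of −0.13 to 0.13, and an exact permutation test (two-sided, on log2 CPM, over all splits of both groups) gave p = 0.983. With or without surrogate variables, the intervals of Grin1 were the narrowest of the 6 members in each comparison.

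Grin2a (gene 24409, chr10:5707806-6123568, plus strand, 9319 exon bases) encodes GluN2A, the subunit that becomes prominent at mature forebrain synapses. It ranged from 171 to 271 CPM (median 243) in control, from 113 to 273 CPM (median 209.8) in ethanol and from 111 to 278 CPM (median 236) in withdrawal rats. The lowest values were those of ethanol rat 1 and withdrawal rat 5, the same rats that stood apart in the CA1 markers. The log2 fold change was −0.18 for ethanol against control rats (SE 0.152, 95% confidence interval −0.50 to 0.14; exact permutation p = 0.232), and 1 of 6 ethanol rats lay above the control mean. For withdrawal against control it was −0.025 (SE 0.143, −0.33 to 0.28), and for withdrawal against ethanol 0.16 (SE 0.161, −0.18 to 0.50). These were the widest intervals among the members with surrogate variables. Without ethanol rat 1 and withdrawal rat 5, the log2 fold change was 0.082 for withdrawal against control, −0.15 for ethanol against control and 0.24 for withdrawal against ethanol rats.

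Grin2b (gene 24410, chr4:169541620-170000216, minus strand, 18147 exon bases) encodes GluN2B, which confers slower kinetics and is prominent in development and in forebrain principal neurons. It ranged from 406 to 591 CPM (median 549) in control, from 413 to 645 CPM (median 468) in ethanol and from 239.9 to 619.6 CPM (median 515) in withdrawal rats. Withdrawal rat 5 was far below the other withdrawal rats, of which the next lowest stood at 465 CPM. The log2 fold changes were −0.019 for withdrawal against control (SE 0.0696, 95% confidence interval −0.17 to 0.13), 0.012 for ethanol against control (SE 0.0739, −0.14 to 0.17) and −0.031 for withdrawal against ethanol (SE 0.0782, −0.20 to 0.13). Without surrogate variables the log2 fold changes were −0.14, −0.074 and −0.064 in the same order. The intervals were wider, and that for withdrawal against control ran from −0.52 to 0.24.

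Grin2c (gene 24411, chr10:103798290-103816923, minus strand, 4929 exon bases) encodes GluN2C, a subunit with weak magnesium block best known from the cerebellum and thalamus. It ranged from 89.3 to 125 CPM (median 103) in control, from 100.6 to 142 CPM (median 120.3) in ethanol and from 93.9 to 129 CPM (median 114) in withdrawal rats. In each comparison with control, 5 of 6 rats exceeded the mean of the controls and 2 exceeded all controls, so the ranges still overlapped. The log2 fold change was 0.15 for ethanol against control (SE 0.0993, 95% confidence interval −0.055 to 0.36; two-sided exact permutation p = 0.0844) and 0.15 for withdrawal against control (SE 0.0933, −0.051 to 0.34; exact permutation p = 0.227). For withdrawal against ethanol it was −0.0096 (SE 0.104, −0.23 to 0.21). Grin2c was the only member whose standard error did not shrink with the surrogate variables, being 0.891 to 0.999 times as large without them as with them.

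Grin2d (gene 24412, chr1:101819068-101859146, minus strand, 11034 exon bases) encodes GluN2D, which has the slowest kinetics of the family and in the adult hippocampus is known from interneurons. It ranged from 18.6 to 27.7 CPM (median 21.5) in control, from 14.8 to 37.3 CPM (median 22.9) in ethanol and from 16.3 to 44.4 CPM (median 21.1) in withdrawal rats. The highest values were those of withdrawal rat 5, ethanol rat 1 and withdrawal rat 1. The log2 fold change was 0.17 for withdrawal against ethanol (SE 0.0875, 95% confidence interval −0.011 to 0.36; limma-voom q = 0.327; exact permutation p = 0.749), 0.11 for withdrawal against control (SE 0.0769, −0.048 to 0.28) and −0.060 for ethanol against control (SE 0.0843, −0.24 to 0.12). Without surrogate variables the standard errors were 2.63 to 3.03 times as large, and the log2 fold change was 0.076 for withdrawal against ethanol and 0.085 for ethanol against control. With surrogate variables but without ethanol rat 1 and withdrawal rat 5, it was 0.11 for withdrawal against ethanol and 0.054 for withdrawal against control.

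Grin3a (gene 191573, chr5:64928620-65073012, minus strand, 3217 exon bases) encodes GluN3A, which lowers the calcium permeability of the receptor and is most abundant early after birth. It ranged from 5.35 to 11.7 CPM (median 10.04) in control, from 5.33 to 13.04 CPM (median 9.38) in ethanol and from 4.77 to 20.7 CPM (median 8.60) in withdrawal rats. The withdrawal group held both the lowest value (rat 6) and the 2 highest (rats 5 and 1) of all rats. The log2 fold changes were −0.087 for withdrawal against control (SE 0.0824, 95% confidence interval −0.26 to 0.086), −0.019 for ethanol against control (SE 0.0875, −0.20 to 0.17) and −0.068 for withdrawal against ethanol (SE 0.0934, −0.27 to 0.13). Without surrogate variables the standard errors were 3.41 to 3.84 times as large, and the first and the last difference changed sign, to 0.065 and 0.13. Grin3b (gene 170796), which encodes the remaining subunit of the family, had only 3 to 44 counts per rat and is no member, and it reached 1.18 CPM in withdrawal rat 5 and at most 0.618 CPM in the others. Its q was at least 0.633 in each comparison (limma-voom).

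**Figure D3:**
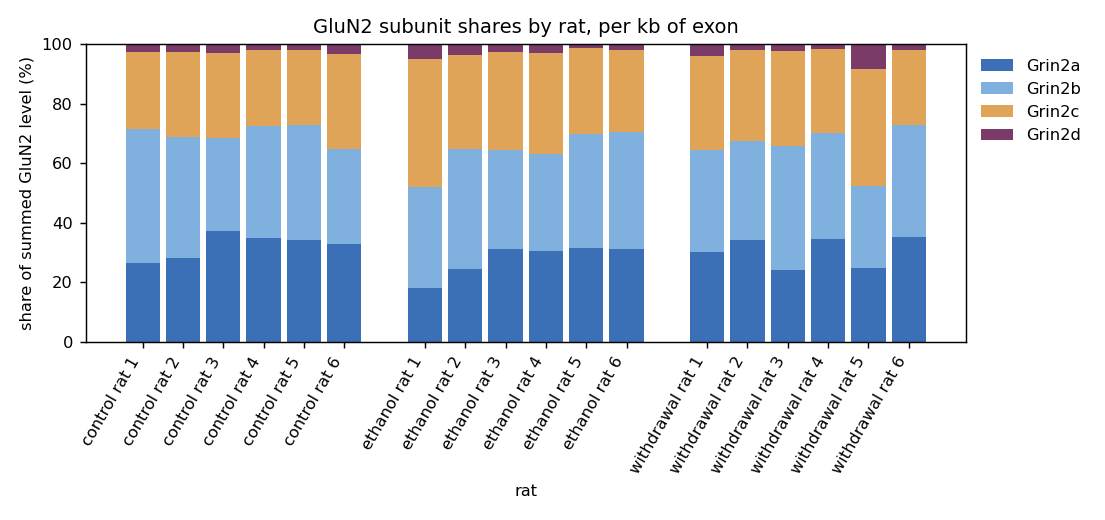
Share of each GluN2 transcript in the summed level of Grin2a to Grin2d, per kilobase of exon, with 1 bar per rat. Grin2d held 8.33% in withdrawal rat 5 and at most 5.05% in the other 17 rats, and Grin2c held its highest shares in ethanol rat 1 and withdrawal rat 5.

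The makeup of the GluN2 transcripts overlapped between the groups. Of the summed per-length level of Grin2a to Grin2d, Grin2b held 37.4% ± 5.23 (SD, n = 6) in control, 36.4% ± 3.36 in ethanol and 34.9% ± 4.71 in withdrawal rats. Grin2a held 32.3% ± 4.13, 27.8% ± 5.44 and 30.5% ± 5.03, Grin2c held 27.7% ± 2.65, 32.9% ± 5.48 and 31.1% ± 4.80, and Grin2d held 2.60% ± 0.454, 3.01% ± 1.27 and 3.50% ± 2.51, in the same order. These shares are descriptions and were not tested. Without ethanol rat 1 and withdrawal rat 5, the mean share of Grin2c was 30.9% in ethanol and 29.4% in withdrawal rats, and that of Grin2d was 2.61% and 2.53%. The ratio of Grin2b to Grin2a, often used as a measure of receptor maturation, lay between 0.847 and 1.71 (mean 1.19 ± 0.321) in control, between 1.07 and 1.88 (1.36 ± 0.330) in ethanol and between 0.969 and 1.72 (1.17 ± 0.277) in withdrawal rats. By CPM without length, the mean of this ratio was 2.32 in control, 2.65 in ethanol and 2.28 in withdrawal rats. The ratio of Grin1 to the summed GluN2 level was 1.18 ± 0.0665 in control, 1.18 ± 0.106 in ethanol and 1.19 ± 0.233 in withdrawal rats, where rat 5 stood at 1.65 and no other withdrawal rat above 1.18. Such ratios compare transcripts by annotated exon length and do not give the makeup of receptors.

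**Figure D4:**
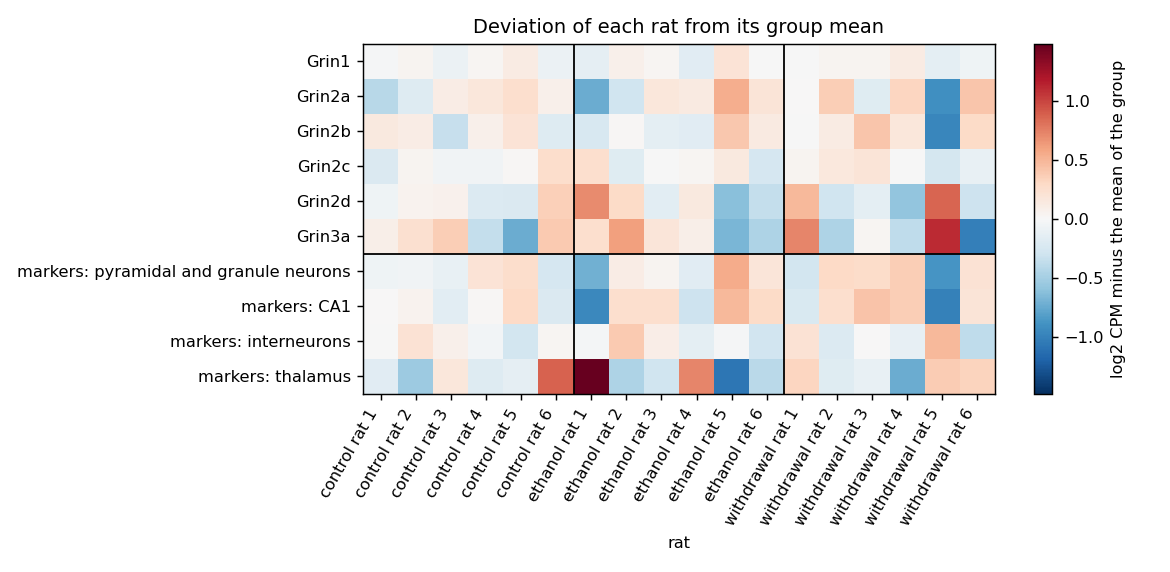
Deviation of each rat from the mean of its group, in log2 CPM, for the 6 subunits (upper rows) and for the summed CPM of 4 marker lists (lower rows). In withdrawal rat 5 and ethanol rat 1, Grin2a and Grin2b lay below and Grin2d and Grin3a above the group mean, and the pyramidal and granule neuron markers and CA1 markers lay below it.

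While no difference between groups passed the test, the subunits varied together from rat to rat within the groups. After each value was centred on the mean of its group, 45 relations were examined over the 18 rats, 15 between members and 30 between a member and the summed level of a marker list, with p values from 100000 permutations within groups. Of the 15 pairs of members, 7 had an adjusted p under 0.05 for both Pearson's r and Spearman's rho. Grin2d and Grin3a varied together (r = 0.842, p = 7e-05, adjusted p = 0.00063; rho = 0.901, p = 1e-05, adjusted p = 0.000225; permutation tests, of which 1e-05 is the smallest possible p). Without the 2 rats farthest from the median of the first gene named, which were ethanol rat 1 and withdrawal rat 5, r was 0.842, and it was 0.835 within the first index set (6 control rats) and 0.846 within the second (8 rats). Grin1 and Grin2b also varied together (r = 0.683, p = 0.00081, adjusted p = 0.0026; rho = 0.678, p = 0.00335, adjusted p = 0.00942; r without the 2 farthest rats, here ethanol rats 4 and 5, 0.662, without ethanol rat 1 and withdrawal rat 5 0.650, and 0.866 and 0.840 within the index sets).

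Grin2d and Grin3a varied in the opposite direction to Grin2a and Grin2b. For Grin2b and Grin2d r was −0.774 (p = 0.00052, adjusted p = 0.00233) and rho −0.783 (p = 0.0003, adjusted p = 0.00123), with r = −0.729 without the 2 farthest rats (control rat 3 and withdrawal rat 5), −0.605 without ethanol rat 1 and withdrawal rat 5, and −0.663 and −0.792 within the first and second index set. For Grin2a and Grin2d r was −0.814 (p = 0.00077, adjusted p = 0.0026) and rho −0.860 (p = 8e-05, adjusted p = 0.000825). Without the 2 farthest rats it was −0.606, and it was −0.137 within the control rats of the first index set against −0.930 in the second, so this relation did not hold among control rats alone. The remaining 3 pairs that passed were Grin2a and Grin3a (r = −0.739), Grin2b and Grin3a (r = −0.735) and Grin1 and Grin2d (r = −0.701), with adjusted permutation p of 0.00408, 0.00387 and 0.0091. Grin2a and Grin2b had r = 0.618 (p = 0.0323, adjusted p = 0.0606, permutation test), which was 0.155 without the 2 farthest rats, ethanol rat 1 and withdrawal rat 5, and thus rested on those rats (rho = 0.546, p = 0.0279, adjusted p = 0.0546). In none of its 10 relations did Grin2c have an adjusted p under 0.05, with r between −0.182 and 0.334.

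Rats low in markers of pyramidal and granule neurons tended to be high in Grin2d and in Grin3a. In these relations the farthest rats are those of the marker sum, which are ethanol rat 1 and withdrawal rat 5 unless others are named. Grin2d had r = −0.938 with the summed pyramidal and granule neuron markers (p = 2e-05, adjusted p = 0.00045; rho = −0.903, p = 1e-05, adjusted p = 0.000225), and r was −0.884 without the 2 farthest rats and −0.928 and −0.920 within the index sets. Grin2b had r = 0.854 with the same markers (p = 3e-05, adjusted p = 0.00045; rho = 0.845, p = 0.0001, adjusted p = 0.000825), which was 0.754 without the 2 farthest rats and 0.650 and 0.860 within the index sets. Grin1 varied with these markers too (r = 0.795, p = 0.0002, adjusted p = 0.001; rho = 0.808, p = 0.00017, adjusted p = 0.000956; r without the 2 farthest rats 0.759, and 0.863 and 0.820 within the index sets), and opposite to the thalamic markers (r = −0.852, p = 0.00012, adjusted p = 0.000771; rho = −0.816, p = 0.00023, adjusted p = 0.00103; r without the 2 farthest rats, control rat 6 and ethanol rat 1, −0.878, without ethanol rat 1 and withdrawal rat 5 −0.874, and −0.670 and −0.909 within the index sets). Grin3a had r = −0.765 with the pyramidal and granule neuron markers (p = 0.00057, adjusted p = 0.00233; rho = −0.820, p = 0.00049, adjusted p = 0.0017; permutation tests), with r = −0.761 without the 2 farthest rats and −0.952 and −0.655 within the index sets. Ethanol rat 1, low in these markers, had 10.16 CPM of Grin3a, below the 13.04 CPM of ethanol rat 2. Grin3a varied with the interneuron markers (r = 0.881, p = 5e-05, adjusted p = 0.000562; rho = 0.860, p = 0.00011, adjusted p = 0.000825), with r = 0.827 without the 2 farthest rats (ethanol rat 2 and withdrawal rat 5), 0.848 without ethanol rat 1 and withdrawal rat 5, and 0.837 and 0.776 within the index sets. Grin2d varied with the thalamic markers (r = 0.725, adjusted p = 0.0026, rho = 0.655, adjusted p = 0.017, permutation tests). This r was 0.615 without control rat 6 and ethanol rat 1, and 0.737 and 0.818 within the index sets. With the interneuron markers Grin2d had r = 0.647 (adjusted p = 0.0331, rho = 0.670, adjusted p = 0.0221). This r was 0.470 without ethanol rat 2 and withdrawal rat 5, and 0.546 and 0.459 within the index sets. All 30 of these relations join values of the same libraries on the same scale, and 14 had an adjusted p under 0.05 for both coefficients. The third index set held only 4 rats, too few for a value of its own.

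**Figure D5:**
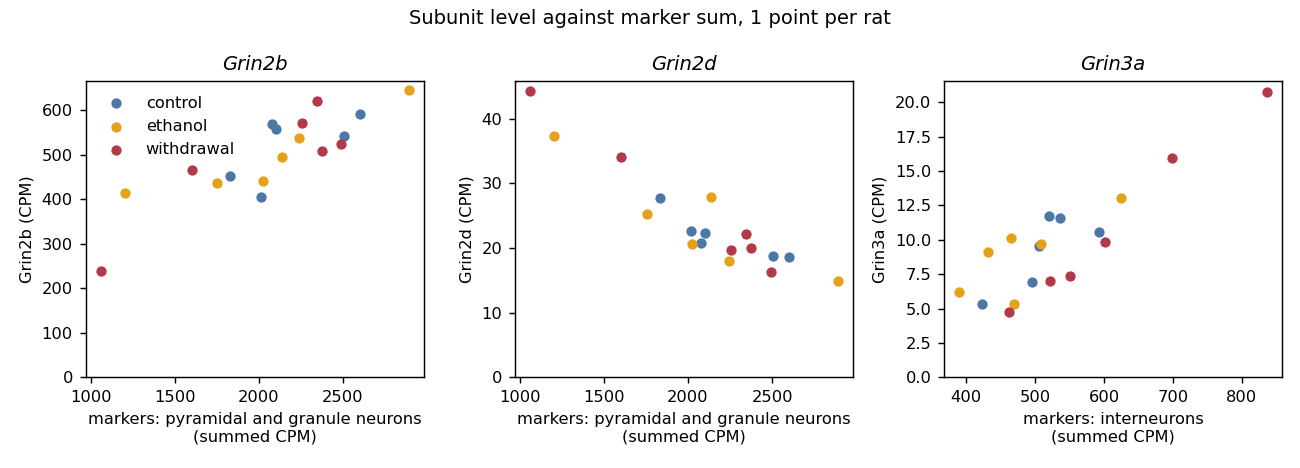
Level of Grin2b and Grin2d against the summed CPM of 6 pyramidal and granule neuron markers, and of Grin3a against that of 7 interneuron markers, with 1 point per rat and colours for the groups. The rats of the 3 groups overlap in each panel, with withdrawal rat 5 at the low end of the neuron markers (1061 CPM) and the high end of the interneuron markers (836 CPM).

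The surrogate variables carried much of this shared variation. Of the variance of log2 CPM within groups, the 3 surrogate variables took up 83.8% for Grin1, 61.9% for Grin2a, 87.8% for Grin2b, 91.6% for Grin2d and 95.6% for Grin3a, but only 10.5% for Grin2c. Covariates estimated from the same libraries take up some variance even of unrelated genes. The share over all genes was not computed. The differences between groups given with surrogate variables are thus differences at equal values of these covariates.

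Among 14425 other genes with a symbol and a mean of at least 1 CPM, those with the most similar deviations over the 18 rats differed by subunit. For Grin1 they were Adam11 (r = 0.945), Speg (0.931) and Lmtk3 (0.929), and for Grin2b they were Nhsl1 (0.975), Entrep2 (0.956) and Pcdh1 (0.954). For Grin2a they were Samd8 (0.909), the synaptic vesicle protein gene Sv2b (0.897) and the GABA-A receptor subunit gene Gabrb1 (0.896). For Grin2d they were Zfp385a (0.981), Nrip2 (0.981) and Nsg1 (0.973), and for Grin3a Gpr165 (0.978), Ank1 (0.976) and Ptchd1 (0.973). For Grin2c no gene had r over 0.9, and the nearest were Kpna2 (0.831), Fscn1 (0.804) and Irf8 (0.787). Without ethanol rat 1 and withdrawal rat 5, r lay between 0.852 and 0.988 for the genes named for Grin1, Grin2b, Grin2d and Grin3a, between 0.759 and 0.845 for those named for Grin2a, and between 0.656 and 0.738 for those named for Grin2c. These values describe the genes picked for being highest.

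Of 77 genes that anchor, move, modify or supply co-agonist to NMDA receptors, few passed the test. All 77 were among the genes tested. For withdrawal against control rats 3 had q < 0.1 (3.9%, against 5.41% of all genes), for ethanol against control rats 1 (1.3%, against 0.493%), and for withdrawal against ethanol rats 2 (2.6%, against 2.72%). The median log2 fold change of the 77 genes was 0.015, −0.013 and 0.0089 in the same order, beside 0.00030, 0.00046 and −0.00024 over all genes tested. Without ethanol rat 1 and withdrawal rat 5 the counts were 7 (9.09%, against 5.66% of all genes), 4 (5.19%, against 1.57%) and 4 (5.19%, against 3.77%). Without surrogate variables they were 0, 1 and 2, where 0.23%, 0.28% and 3.48% of all genes had q < 0.1.

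Of 18 scaffold and postsynaptic density genes, 1 passed for withdrawal against control rats, with a positive log2 fold change. Shank1, which encodes a scaffold of the postsynaptic density, stood at 496 ± 36.5 CPM (SD, n = 6) in control, 492 ± 47.9 in ethanol and 569 ± 73.6 in withdrawal rats (log2 fold change over control 0.22, SE 0.0570, q = 0.0577 by limma-voom; exact permutation p = 0.0541). The groups overlapped, with 2 of 6 withdrawal rats above and 1 below every control rat. Its q was 0.366 without surrogate variables (log2 fold change 0.19), and it exceeded 0.1 with 7 of the 18 rats left out in turn, reaching 0.131 without withdrawal rat 1. No gene of this list had q < 0.1 in the other comparisons, where the lowest p belonged to Homer2 (ethanol against control, −0.23, q = 0.222) and Dlgap1 (withdrawal against ethanol, 0.12, q = 0.126).

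Of 14 genes for trafficking and turnover, 1 fell between control and withdrawal rats and 1 rose between ethanol and withdrawal rats. Kif17, the kinesin that carries GluN2B vesicles along dendrites, fell from 25.3 ± 2.46 to 20.5 ± 3.83 CPM (−0.27, SE 0.0748, q = 0.0662 by limma-voom; exact permutation p = 0.0238), with 4 of 6 withdrawal rats below every control rat. Its q was 0.302 without surrogate variables (log2 fold change −0.31), 0.103 without ethanol rat 1 and withdrawal rat 5 (−0.24), and over 0.1 with 8 of the 18 rats left out in turn, up to 0.198 without withdrawal rat 6. Pacsin1, an endocytic adaptor of neurons, stood at 165 ± 17.3 CPM in ethanol and 211 ± 29.8 CPM in withdrawal rats (0.25, SE 0.0691, q = 0.0923; exact permutation p = 0.00649), with 5 of 6 withdrawal rats above every ethanol rat. Its q was 0.0527 without surrogate variables and over 0.1 with 13 of the 18 rats left out in turn, up to 0.318 without withdrawal rat 6. For ethanol against control rats no gene passed, and Fbxo2 had the lowest p (0.14, q = 0.197).

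Of 27 genes for kinases, phosphatases and calcium signalling, 1 passed for ethanol against control and 1 for withdrawal against ethanol rats, each with a positive log2 fold change. Rack1, a scaffold that binds Fyn and the GluN2B tail, rose from 149 ± 4.595 to 165 ± 2.81 CPM, with all 6 ethanol rats above every control rat (0.14, SE 0.0320, q = 0.0843 by limma-voom and 0.0787 without surrogate variables; exact permutation p = 0.00216, the smallest that 6 rats against 6 allow). With rats left out in turn its log2 fold change lay between 0.13 and 0.16, and q exceeded 0.1 with 10 of the 18, up to 0.220 without control rat 6. Camk2d, a subunit of CaMKII, had q = 0.0628 for withdrawal against ethanol rats (0.21, SE 0.0503, limma-voom), but its levels of 90.9 ± 41.2 and 86.5 ± 35.8 CPM overlapped, with a log2 fold change of 0.065 without surrogate variables (q = 0.926; exact permutation p = 0.840), and with rats left out in turn the log2 fold change lay between 0.13 and 0.25 and q was over 0.1 with 7 of the 18, up to 0.267 without withdrawal rat 6. For withdrawal against control rats none passed, and Ppp3ca had the lowest p (−0.18, q = 0.104).

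Of 18 genes for co-agonist supply and kynurenate, 1 rose between control and withdrawal rats. Slc1a4, a transporter of serine and other neutral amino acids, rose from 17.1 ± 0.661 to 23.4 ± 5.62 CPM, with 5 of 6 withdrawal rats above every control rat (0.43, SE 0.121, q = 0.0749 by limma-voom; exact permutation p = 0.00433). Its q was 0.221 without surrogate variables (log2 fold change 0.41) and exceeded 0.1 with 9 of the 18 rats left out in turn, up to 0.197 without withdrawal rat 6. In the other comparisons none passed, and the lowest p values were those of Shmt1 (ethanol against control, −0.38, q = 0.128) and Gldc (withdrawal against ethanol, −0.26, q = 0.155).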

How the data were processed

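RNA-seq of the dorsal hippocampus of 18 rats was analysed from gene counts deposited by the authors, who made them from stranded, paired-end reads with STAR 2.5.2a against Rnor_6.0 and featureCounts 1.5.0 (versions from the submitters' processing notes). Symbols came from RefSeq names for GRCr8, which matched 29322 of 38445 gene identifiers. Each file held 1 column of counts, and no column of values was left unused. Totals per rat lay between 30873228 and 42679748 counts, and intervals over rats cover biological and technical spread together.

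Genes with CPM over 0.5 in at least 1 rat (17853) were kept, scaled by TMM (edgeR 4.0.16, which also gave the quasi-likelihood test) and fitted with limma-voom (limma 3.58.1, R 4.3.3), with all 3 groups in 1 model and 3 surrogate variables (sva 3.50.0). The number of surrogate variables is not given in the sources used here. Benjamini-Hochberg q values were taken over all genes tested, with q < 0.1 as the threshold. DESeq2 1.42.0 without surrogate variables, other scalings, filters and numbers of surrogate variables, fits blocked on replicate number, and fits without each rat were the alternatives. The fits without ethanol rat 1 and withdrawal rat 5 were added after seeing the data. Log2 CPM of single genes, with a prior count of 2, was compared by two-sided exact permutation tests over all splits of 6 rats against 6. Levels were compared between genes as CPM per kilobase of annotated exon. The scripts were tested on simulated data. Between any pair of rats of a group, counts differed by more than sampling noise (lowest chi-square per degree of freedom 5.74 over 45 pairs), so none was counted as a repeat.

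The rule for the members used gene symbols only, but this gene family and the gene lists were chosen with earlier results of these data known. Named were all members and Grin3b, of each pathway list the genes with q < 0.1 (at most 5 per comparison) or else that with the lowest p, of each marker list at most 2 genes with q < 0.1 per comparison, and for each member the 3 genes with the highest r over the 18 rats. Index sets were read from the names of the deposited files.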

Additional observations from a re-analysis of the deposited data

Results flagged for a closer look

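In 36 groups of 6 values (the subunits' levels, shares and ratios by group), 3 had a rat whose gap to the nearest other rat was more than 0.625 of the whole range, Dixon's limit, where chance gives about 1 in 20. The Grin2d share of the GluN2 transcripts was 8.33% in withdrawal rat 5, against 4.12% in the next withdrawal rat (gap over range 0.647). The ratio of Grin1 to the GluN2 sum was 1.65 in the same rat, against 1.18 in the next (gap over range 0.714). The ratio of Grin2b to Grin2a was 1.72 in withdrawal rat 3, against 1.13 in the next (gap over range 0.784). Withdrawal rat 5 also had the lowest summed level of pyramidal and granule neuron markers, 1061 CPM, while withdrawal rat 3 had 2347 CPM. The part of these markers in the values was not tested.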

How the results depend on the processing

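The result that 0 of the 6 members had q < 0.1 held in each comparison under all alternatives run, and the lowest q in any of them was 0.219 (Grin1, withdrawal against ethanol rats, without ethanol rat 4). Of 612 alternative log2 fold changes of members, 546 kept their sign and 66 did not. The cause of the shifts was not tested. Depth was not varied.

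The number of all genes with q < 0.1 depended strongly on the settings, given here for withdrawal against control, ethanol and control, and withdrawal and ethanol rats. It was 965, 88 and 486 with the settings of the report, and 370, 10 and 112 at q < 0.05. With no filter it was 486, 9 and 166, with 5 surrogate variables 262, 322 and 871, and with DESeq2, which was run without surrogate variables, 435, 431 and 1443. Without surrogate variables the counts were 41, 50 and 621, with edgeR without them the first was 33, and with 2 surrogate variables the first and the last were 594 and 260. With sample quality weights the last 2 were 440 and 1073, and with only the 2 groups compared 28 and 0. Leaving out ethanol rat 1 and withdrawal rat 5, chosen after seeing the data, gave 1002, 277 and 667, and without surrogate variables as well 52, 7 and 113. Leaving out each rat in turn gave 23 (without withdrawal rat 6) to 1911 (without withdrawal rat 2), 0 (without control rat 4) to 258 (without ethanol rat 5), and 0 (without ethanol rat 2) to 1800 (without ethanol rat 5).

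Replicate numbers are shared between groups but belong to different rats, and of 18 same-number pairs 4 had correlated deviations (r over 0.1, range −0.325 to 0.383). This check cannot tell whether the numbers mark pairs of the design, such as those of pair feeding. Blocked on replicate number and with surrogate variables, 33 genes for ethanol against control and 1 for withdrawal against ethanol had q < 0.1, and with the block alone 0, 0 and 14. The blocked fits called 0 members. With the block and surrogate variables Grin2c for withdrawal against ethanol was 0.022. With the block alone Grin3a was 0.10 for withdrawal against control and 0.15 for withdrawal against ethanol, and for ethanol against control Grin1 was −0.04, Grin2b −0.07 and Grin2d 0.11.

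Log2 fold changes of members changed sign as follows. Without surrogate variables, by limma-voom, edgeR and DESeq2 respectively, Grin3a for withdrawal against control was 0.065, 0.24 and 0.24, Grin3a for withdrawal against ethanol 0.13, 0.29 and 0.30, and for ethanol against control Grin1 was −0.040, −0.037 and −0.039, Grin2b −0.074, −0.069 and −0.071, and Grin2d 0.085, 0.14 and 0.13. For ethanol against control, Grin2b was −0.041 with 2 surrogate variables, −0.00075 with quality weights, −0.0063 with upper-quartile scaling and −0.026 with only the 2 groups compared, where Grin2a was 0.024. For withdrawal against ethanol, Grin2c was 0.0034 with 5 surrogate variables and 0.025 with quality weights. With no filter, Grin2a was 0.0035 and Grin2b 0.021 for withdrawal against control. Without ethanol rat 1 and withdrawal rat 5, Grin2a was 0.082 and Grin2b 0.00066 for withdrawal against control, Grin2b −0.0027 for ethanol against control, and Grin2b 0.0034 and Grin2c 0.026 for withdrawal against ethanol. Without both rats and surrogate variables, Grin2a was 0.060, Grin2b 0.055 and Grin2d −0.014 for withdrawal against control, Grin1 −0.0098 and Grin2b −0.022 for ethanol against control, and Grin2b 0.077 and Grin2c 0.022 for withdrawal against ethanol.

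With each rat left out in turn, Grin2a for withdrawal against control ranged from −0.11 to 0.087. Grin2b ranged from −0.065 to 0.046 for withdrawal against control, from −0.029 to 0.043 for ethanol against control and from −0.062 to 0.045 for withdrawal against ethanol. Grin3a ranged from −0.15 to 0.0083, from −0.066 to 0.048 and from −0.15 to 0.053 in the same order. Grin2c for withdrawal against ethanol ranged from −0.055 to 0.13, and Grin2d for ethanol against control from −0.14 to 0.027. The others kept their sign. For ethanol against control, Grin1 ranged from 0.015 to 0.048, Grin2a from −0.26 (without ethanol rat 3) to −0.070 (without control rat 6), and Grin2c from 0.090 to 0.23. For withdrawal against control, Grin1 ranged from −0.063 to −0.026, Grin2c from 0.097 to 0.25, and Grin2d from 0.062 (without ethanol rat 5) to 0.17 (without withdrawal rat 4). For withdrawal against ethanol, Grin1 ranged from −0.089 to −0.047, Grin2a from 0.051 (without ethanol rat 2) to 0.25 (without withdrawal rat 3), and Grin2d from 0.088 (without ethanol rat 3) to 0.27 (without ethanol rat 2). In the order of levels, comparing CPM without length changed 2 places in control, 4 in ethanol and 2 in withdrawal rats, with Grin2d then above Grin3a in each group and Grin2a above Grin2c also in ethanol rats.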
